A study of Rattus norvegicus with 36 samples.

Results

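The rat pineal gland was profiled by strand-specific, rRNA-depleted RNA-seq in 36 libraries, and 278 of the 29516 genes counted are described here. These are genes abundant in a pool of other tissues and scarce in the pineal gland. They were chosen by measured values: a level of at least 100 CPM (the read-pair count of a gene scaled to the library total) in the mixed-tissue library, and at least 8 times the level, plus 0.1 CPM, of each of the pineal libraries prepared beside it, taken at mid-day and at midnight. Only these 3 marker libraries, with no replicates, entered the choice. The 278 genes, called members below, were then followed in each of the other 33 libraries, which the choice did not use.

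The 24 in vivo libraries came from Sprague-Dawley rats kept in 14 h of light and 10 h of dark, with glands of both sexes taken at an age of 40 days, at ZT7 (day) or ZT19 (night), and pooled into 3 libraries per group. The Control groups had no surgery. On postnatal day 5 the Sham groups had a mock operation, the DCN groups had the superior cervical ganglia decentralized by cutting the sympathetic trunk, and the SCGX groups had both ganglia removed. The 9 culture libraries were of glands from female rats of 2 to 3 months, cultured for 48 h and then for 6 h with no drug (Untreated), 1 µM norepinephrine (NE) or 500 µM dibutyryl cyclic AMP (DBcAMP), in 3 libraries each. The mixed-tissue library held equal RNA of 15 tissues of 3 rats killed at ZT7: 5 brain regions (cortex, hypothalamus, midbrain, hindbrain, cerebellum) with spinal cord and retina, the pituitary and adrenal glands, and liver, kidney, lung, small intestine, heart and skeletal muscle.

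The pineal gland makes melatonin at night. Its rhythm is driven by sympathetic fibres of the superior cervical ganglia, which release norepinephrine in the dark and raise cyclic AMP in the pinealocyte. The gland lies under the skull at the surface of the brain, beside large veins and meninges, so that a dissected gland can carry cells of its surroundings. In bulk RNA, more cells of another type and more RNA per cell of the same gene cannot be told apart. The files list the genes by Ensembl identifier and do not pair identifiers with names. Of the 278 identifiers, 0 were found in the reference gene table used here, so the tissues and functions of the members are not named. Members are referred to by their rank in the mixed-tissue library, and 4 are printed by identifier, chosen after their values were seen. Whether markers of pinealocytes or of any other cell type stand at the levels the tissue label implies was for the same reason not analysed here.

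In the mixed-tissue library the members ran from 100.07 to 7406 CPM with a median of 197.5, and 16 lay above 1000. Together they made up 11.97% of its read-pairs, against 0.226% and 0.172% of the marker pineal libraries of day and night. The 10 most abundant held 37.0% of the summed mixed-tissue level. These values are what the members were chosen by and are given as a description. The ratio of the mixed-tissue level to the higher pineal level plus 0.1 CPM had a median of 80.4 and reached 5258. The lowest-ranked members stood at 100.07, 100.95 and 101.0 CPM, and the genes just short of the limit at 99.83, 99.81 and 99.78. On the fold limit the nearest values were 8.01, 8.05 and 8.11 inside and 7.90, 7.89 and 7.89 outside. The length of the gene model, which the choice did not use, had a median of 2466 bases for the members and 1879 bases for the 17267 genes whose length could be recovered from the files. Levels are therefore compared between libraries for the same gene, and not between genes.

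Of the 24 in vivo libraries, 22 carried the members at a low and similar summed level, and 2 did not. Library totals lay between 12556861 and 18524435 read-pairs, so that 3 read-pairs, the level that a count of 0 still allows, corresponded to 0.162 to 0.239 CPM, for counting error only. The summed level in the 22 libraries ranged from 1280.03 to 2609 CPM with a median of 1932. DCN day replicate 1 stood at 6121 CPM, where the other libraries of its group stood at 2218 and 1955. Sham night replicate 3 stood at 8725 CPM, where the others of its group stood at 1566 and 1734. These libraries were thus 2.35 and 3.34 times as high as the highest of the other 22, the library Sham day replicate 3. No test was made on these sums, because the libraries were singled out by them.

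**Figure D1:**
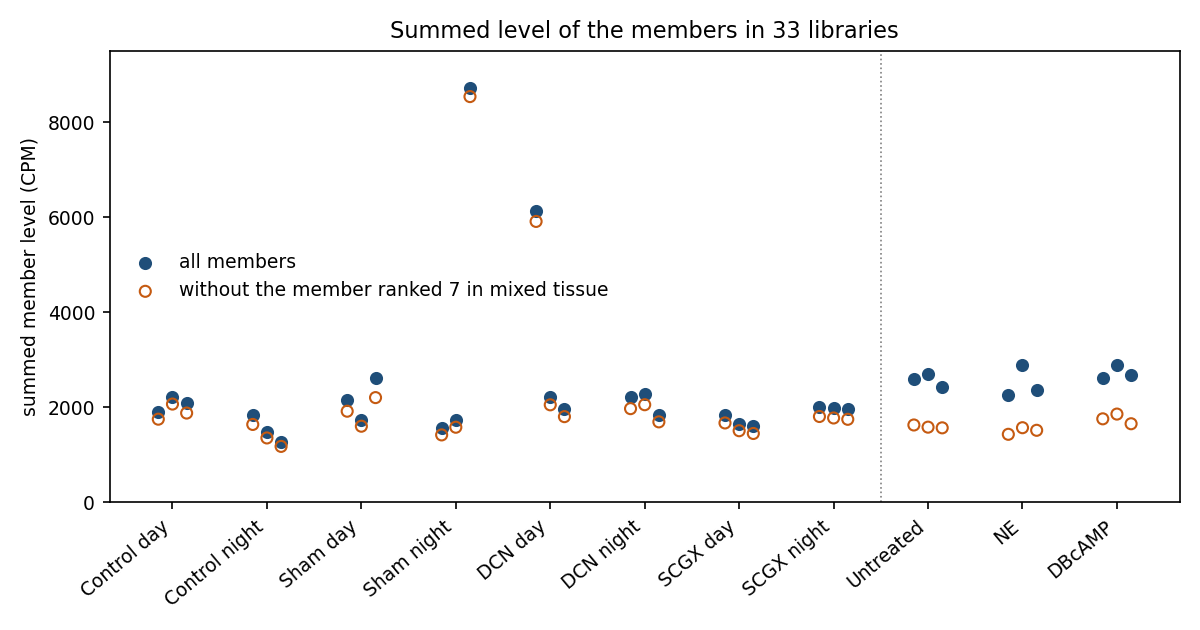
Summed level of the 278 members (CPM, linear axis from 0) in each of the 33 libraries, with 1 point per library in 3 libraries per group, in vivo groups to the left of the dotted line and cultures to the right. Filled points are all members and open points leave out the member ranked 7 in mixed tissue. DCN day replicate 1 (6121 CPM) and Sham night replicate 3 (8725 CPM) lie above every other library, and the open points of the cultures fall within the range of the 22 other in vivo libraries.

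Among the other libraries the summed level differed by time of day in Control and in SCGX, in opposite directions. Control day stood at 1909.6, 2209 and 2084 CPM, and Control night at 1847, 1486 and 1280.03, so that the night libraries all lay below the day libraries. In SCGX the order was the opposite, with 1838, 1646 and 1599 CPM by day and 2005, 1977 and 1956 at night. Sham day stood at 2148, 1734 and 2609 CPM, and DCN night at 2216, 2274 and 1839.8. The sums are a description of 3 libraries a group and carry no p-value. Each library was scaled by its own total and not for composition. With that scaling the median log2 fold change at night in Control was -0.44 over the members tested and -0.21 over all genes tested. In SCGX the same medians were 0.17 and 0.04.

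DCN day replicate 1 and Sham night replicate 3 had more members at 1 CPM or above than the other 22 libraries. In the 22 libraries 125 to 150 members reached 1 CPM, against 187 in DCN day replicate 1 and 186 in Sham night replicate 3. Members with no read-pair numbered 50 to 64 in the 22, 40 in DCN day replicate 1 and 50 in Sham night replicate 3. Over all 278 members the median shift of log2(CPM + 0.5) from the median of the 22 libraries was 0.72 in DCN day replicate 1 and 0.98 in Sham night replicate 3. In the other 22 libraries that shift lay between -0.20 and 0.11. Of the 278 members, 210 were above that median in the former library and 190 in the latter.

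A member was counted as raised in a library where its level exceeded 4 times the median of the 22 libraries plus 0.5 CPM. By that measure 87 members were raised in DCN day replicate 1, which is 31.3% of the members, where 1.33% of the 23463 genes with a read-pair in vivo were raised. In Sham night replicate 3 the number of members was also 87, again 31.3%, where 2.19% of those genes were raised. The member shares are of all 278 members, of which 266 had a read-pair in vivo. Both libraries were singled out by high member sums, so a high share of raised members follows in part from that choice. In the 22 other libraries 0 to 5 members were raised, and 0 to 127 of all genes. Of all genes, 99, 105 and 118 were raised in Control night, and 123 and 127 in Sham night replicates 1 and 2. Sham day replicate 3 had 123. The median is over day and night libraries together, so genes higher at night can pass the limit in night libraries. Such genes can be among those raised in Sham night replicate 3. The raised members made up 27.97% of the 311 genes raised in DCN day replicate 1 and 16.9% of the 514 raised in Sham night replicate 3.

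Most raised members were shared. In all 74 were raised in both libraries, which is 85.1% of the raised members of each. A further 13 were raised in DCN day replicate 1 only and 13 in Sham night replicate 3 only. Of all genes, members included, 244 were raised in both, from 311 raised in DCN day replicate 1 and 514 in Sham night replicate 3. Sharing was thus not particular to the members. Over those 74 the summed level was 140.2 to 269.9 CPM in the 22 libraries, 2748 CPM in DCN day replicate 1 and 2773 CPM in Sham night replicate 3. In the 9 cultures it was 199.7 to 262.2 CPM. The excess over the mean of the 22 libraries was compared member by member, and the ratio of Sham night replicate 3 to DCN day replicate 1 had a median of 0.91 with quartiles of 0.77 and 1.26. Across the 278 members the shifts of log2(CPM + 0.5) in the libraries correlated with Pearson r = 0.90 and Spearman rho = 0.82, which describes genes measured against the same 22 libraries and not independent replicates. The 74 members had a median of 1.38 CPM in the 22 libraries and a median length of 3312 bases, and the 178 raised in neither had medians of 0.684 CPM and 1990.0 bases.

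**Figure D2:**
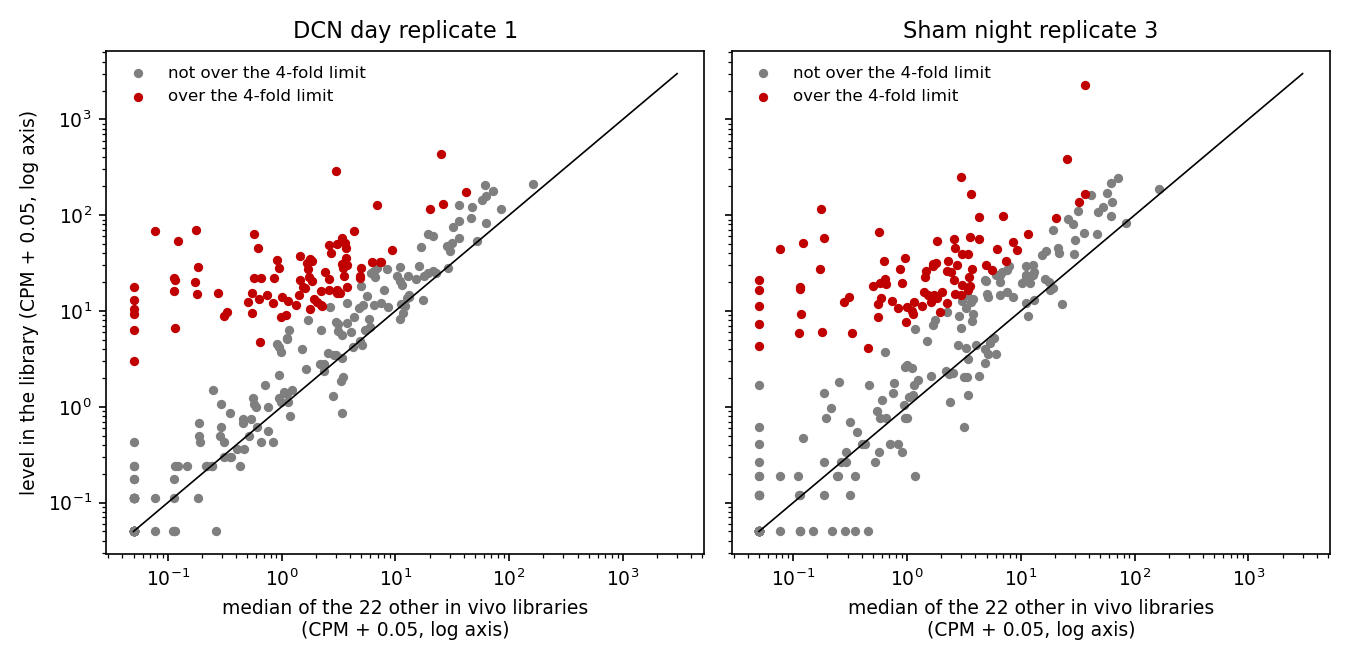
Level of each of the 278 members in DCN day replicate 1 (left) and Sham night replicate 3 (right) against its median in the 22 other in vivo libraries, in CPM plus 0.05 on log axes, with the line of equal levels. Red points are the 87 members over the 4-fold limit in each library, and the highest point on the right is a member at 2259.8 CPM.

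A pair of other gene sets is given for their levels in the same libraries. Both have high pineal levels by their choice, so that an excess of the size seen in the members would seldom take them past the 4-fold limit, and nothing is read from their raised counts. Of the 1726 other genes with at least 100 CPM in mixed tissue, which failed the fold limit, 2 were raised in DCN day replicate 1 and 13 in Sham night replicate 3. The mirrored choice, with pineal and mixed tissue exchanged, gave 56 pineal-enriched genes, and 0 of these were raised in either library. Their summed level was 51709 CPM in DCN day replicate 1, within the range of 47407 to 61762 CPM of the 22 libraries. In Sham night replicate 3 it was 42186 CPM, below that range. These counts are descriptions of single libraries with no replicate check.

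The members did not stand at a common share of their mixed-tissue level. In DCN day replicate 1, 67 members were below 0.1% of it, 44 between 0.1% and 1%, 36 between 1% and 5%, 38 between 5% and 10%, 65 between 10% and 20%, and 28 at 20% or more. In Sham night replicate 3 the same classes held 74, 33, 39, 41, 59 and 32 members. Among the 74 raised in both, the excess over the mean of the 22 libraries had a median of 10.5% of the mixed-tissue level in each library. Its quartiles were 7.63% and 15.0% in DCN day replicate 1, and 6.32% and 16.7% in Sham night replicate 3. In the 22 other libraries the median member stood at 0.369% to 0.701% of its mixed-tissue level.

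**Figure D3:**
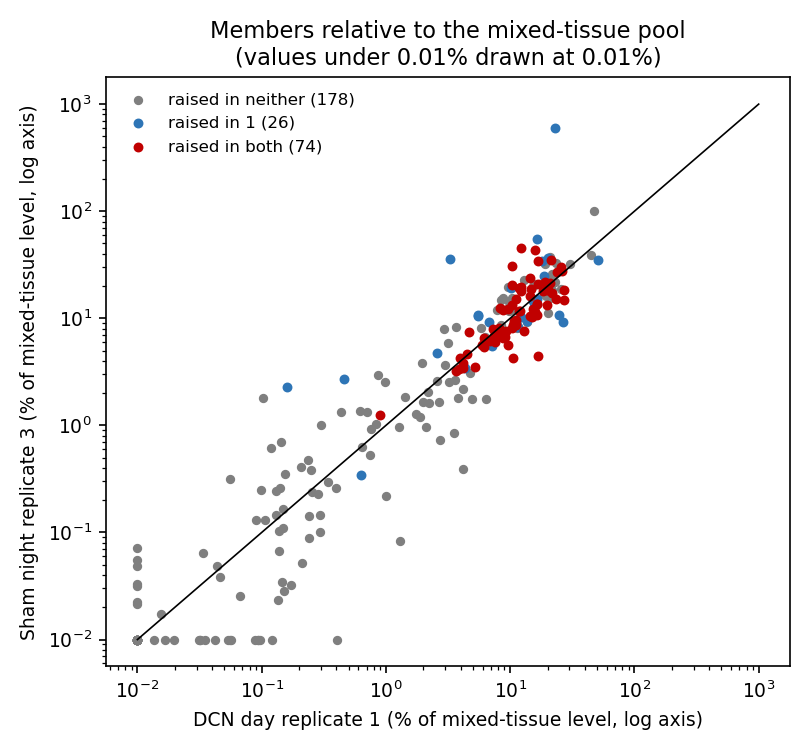
Level of each member as a percentage of its mixed-tissue level in DCN day replicate 1 (x) and Sham night replicate 3 (y), on log axes with the line of equal values and values under 0.01% drawn at 0.01%. The 74 members raised in both libraries gather around 10% in both, whereas 67 and 74 members lie below 0.1% in the libraries on x and y.

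The most abundant members of the pool showed both kinds of behaviour. The member ranked 1, at 7406 CPM in mixed tissue, stood at 1.07 to 5.54 CPM in the 22 libraries, at 286.8 CPM in DCN day replicate 1 and at 251.6 CPM in Sham night replicate 3. The member ranked 3, at 6299 CPM in mixed tissue, stood at 16.8 to 34.6, 435.7 and 386.0 CPM in the same order. Both were thus more than 10 times as high in each of these libraries as in the highest of the 22. The member ranked 2, at 6873 CPM in mixed tissue, did not exceed 0.567 CPM in any of the 33 libraries. The member ranked 4, at 6248 CPM, reached 0.135 CPM at most, and the member ranked 10, at 1615 CPM, had no read-pair in any of the 33. Of the 10 most abundant members, those ranked 1, 3 and 7 were the ones that passed 1% of their mixed-tissue level in any of the 33 libraries.

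Over all members, 12 had no read-pair in any in vivo library and 8 had none in any of the 33. A further view is the highest level a member reached in any of the 33 libraries: it was under 0.01% of the mixed-tissue level for 10 members, under 0.1% for 40 and under 1% for 93. At the other end 178 members had a read-pair in all 24 in vivo libraries and 46 had a median above 10 CPM there. The highest of these in vivo was the member ranked 7, with 102.8 to 405.3 CPM and a median of 167.3. The second highest had 59.6 to 127.2 CPM, with a median of 84.1, which is 18.9% of its mixed-tissue level. Both were thus carried by every in vivo library.

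The cultures carried the members at 2255 to 2890.3 CPM in sum, with none standing apart. The member ranked 7 contributed 823.5 to 1314 CPM of it, above its level in every in vivo library. Without that member the cultures summed to 1431 to 1857 CPM, and the 22 in vivo libraries to 1177 to 2203 CPM. Of the 270 members with a read-pair in these libraries, 13 were higher in all 9 cultures than in all 24 in vivo libraries, which is 4.81%, where 4.67% of all genes were. Another 24, or 8.89%, were lower in all 9, where 6.63% of all genes were. Both shares were near those of all genes. Among the higher ones, a member at 0 to 1.11 CPM in vivo had 3.05 to 12.9 CPM in culture. Among the lower ones, a member at 31.1 to 247.0 CPM in vivo had 5.24 to 9.06 CPM in culture. Culture, age, sex and sequencing lanes differ together between these sets of libraries and cannot be told apart.

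The comparisons between groups were then tested for all genes by the edgeR quasi-likelihood test, with a gene counted as changed at a Benjamini-Hochberg adjusted p under 0.001. Between 177 and 208 members passed the filter of a mean normalized count of 5 in a comparison, and the rest were not tested. A member that passed only through DCN day replicate 1 or Sham night replicate 3 had to look higher there, so the medians that follow are over the members tested both with and without the library. Nothing in the labels or methods sets either library apart.

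Whether the members as a group leaned up or down depended on those libraries. Because they were singled out by high member sums, a move of the medians without them follows from that choice. The values are a description. In Sham the median log2 fold change at night over 186 members was 0.55, and it was -0.24 without Sham night replicate 3. In DCN it was -0.67 over 182 members, and -0.02 without DCN day replicate 1. For DCN against Sham by day it was 0.60 over 190 members, and 0.00087 without DCN day replicate 1. For DCN against Sham at night it was -0.77 over 180 members, and 0.15 without Sham night replicate 3. For SCGX against Sham at night it was -0.84 over 178 members, and 0.12 without Sham night replicate 3. The median over all genes tested stayed between -0.04 and 0.04 in these 5 comparisons. The number of members with a change over 1 on the log2 scale fell from 88 to 29 in the first of these and from 77 to 12 in the second. Comparisons with neither library had member medians of -0.27 (Control night against day), 0.13 (SCGX night against day), -0.21 (SCGX against Sham by day), -0.03 (NE) and 0.10 (DBcAMP).

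**Figure D4:**
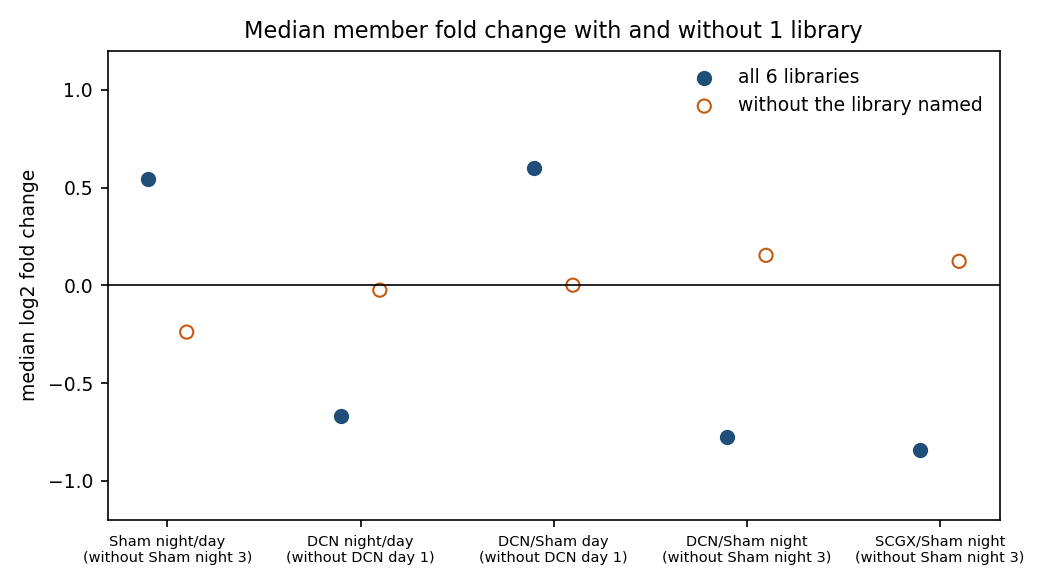
Median log2 fold change of the members in the 5 comparisons that hold DCN day replicate 1 or Sham night replicate 3, over the 178 to 190 members tested both ways, with all 6 libraries (filled) and without the library named under the axis (open). The filled points lie between -0.84 and 0.60 and the open points between -0.24 and 0.15.

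Between night and day few members changed. In Control 9 of 180 members changed, 5 higher and 4 lower at night, which is 5.0% where 9.39% of all genes tested changed. In Sham 1 of 205 was higher at night, where 2.27% of all genes changed. In DCN 0 of 205 members changed by edgeR, where 0.0% of all genes did. At an unadjusted p under 0.05 there were 43 members, or 21.0%, where 8.98% of all genes were. This comparison holds DCN day replicate 1, which was singled out by its high member sum, so nothing is read from that share. Without that library there were 12 of 183 members, or 6.56%, where 1051 of 15673 genes were. DESeq2 on all libraries gave 0 of the 162 members with a p-value, where 0.171% of all genes were called. In SCGX 0 of 178 members changed by edgeR, where 0.0129% of all genes did. There, 41 members, or 23.0%, were at an unadjusted p under 0.05, where 18.1% of all genes were. DESeq2 gave 5 of 178, where 1.12% of all genes were called. The log2 fold changes of the 5 members higher at night in Control ran from 1.36 to 5.13 and those of the 4 lower from -2.45 to -1.83.

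The surgical comparisons gave 0 to 2 members each. DCN against Sham by day gave 0 of 208 members by edgeR, where 0.0% of all genes changed. At an unadjusted p under 0.05 there were 67 members, or 32.2%, where 22.1% of all genes were. DCN day replicate 1, singled out by its high member sum, is in this comparison, so nothing is read from that share. Without that library there were 35 of 190 members, or 18.4%, where 3303 of 15860 genes were. DESeq2 on all libraries gave 8 of the 165 members with a p-value, where 2.53% of all genes were called. DCN against Sham at night gave 1 of 201, where 0.878% of all genes changed. SCGX against Sham gave 2 of 189 by day, where 0.723% of all genes changed, and 1 of 198 at night, where 1.72% did. The DCN and SCGX comparisons share the Sham libraries. With Control and Sham set against DCN and SCGX, 2 of the 266 members with a read-pair in vivo were higher in all 12 libraries of the former than in all 12 of the latter, which is 0.752%, where 0.277% of all genes were. Another 2 were lower in all 12, again 0.752%, where 0.929% of all genes were. The lower pair comprised a member at 59.6 to 83.8 CPM in Control and Sham and 84.4 to 127.2 CPM in DCN and SCGX, and a member at 0.936 to 2.16 CPM in the former and 2.33 to 14.2 CPM in the latter.

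In culture NE gave 9 of 177 members, or 5.08%, 7 higher and 2 lower, where 11.3% of all genes changed. DBcAMP gave 21 of 179, or 11.7%, 17 higher and 4 lower, where 16.7% of all genes changed. Both shares of the members lay below those of all genes. The NE and DBcAMP comparisons share the Untreated libraries. Of the members that changed, 7 did so with both agents, 2 with NE only and 14 with DBcAMP only. The difference between the agents was not tested. In all, 29 members changed in at least 1 of the 10 comparisons, and 3 changed in Control at night, with NE and with DBcAMP alike. Shares of all genes for these overlaps are not given here, so nothing about the members is read from the counts.

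The first of these 3 is printed by identifier in the next paragraph. The member ranked 96 stood at 5.77, 6.08 and 8.90 CPM in Control by day and at 22.2, 29.2 and 28.6 CPM at night. In culture it stood at 3.29, 2.78 and 2.27 CPM untreated, 22.6, 21.7 and 26.7 CPM with NE, and 36.7, 20.6 and 30.4 CPM with DBcAMP. The member ranked 215 stood at 0.459, 0.388 and 0.657 CPM by day and 6.24, 6.33 and 5.60 CPM at night in Control, and at 0.629, 0.474 and 0.594 CPM untreated, 5.14, 7.98 and 7.98 CPM with NE and 7.33, 5.399 and 6.83 CPM with DBcAMP in culture. None of these groups overlapped their comparison group for either member. With DBcAMP the member ranked 48 rose from 21.7, 22.5 and 15.5 CPM to 156.4, 219.9 and 144.9 CPM, which is a log2 fold change of 3.28 (SE 0.17, adjusted p = 1.11e-08 by edgeR).

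ENSRNOG00000007808 was higher at night in Control and Sham, higher with NE and with DBcAMP, and high in both libraries that stood apart. In Control it stood at 0.655, 0.646 and 0.299 CPM by day and at 10.4, 22.7 and 16.5 CPM at night, and in Sham at 0.374, 0.397 and 0.138 CPM by day and at 24.8, 20.5 and 65.9 CPM at night. The night libraries all lay above the day libraries in both. It rose at night by 5.13 on the log2 scale in Control (SE 0.40, edgeR adjusted p = 2.45e-05) and by 6.93 in Sham (SE 0.64, edgeR adjusted p = 0.000778). In DCN night it stood at 0.837, 0.198 and 0.197 CPM, in SCGX day at 0.445, 0.785 and 0.502 CPM, and in SCGX night at 0.154, 0.571 and 0.223 CPM. In DCN day it stood at 62.9, 0.541 and 0.388 CPM, the first value being that of the library that stood apart. That value and the 65.9 CPM of Sham night replicate 3 are 26.4% and 27.6% of its mixed-tissue level of 238.7 CPM.

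Against Sham at night, ENSRNOG00000007808 differed by -6.58 in DCN (edgeR adjusted p = 0.00213) and by -6.86 in SCGX (edgeR adjusted p = 0.0011), short of the threshold. Without Sham night replicate 3 the values were -5.99 (edgeR adjusted p = 0.000465) and -6.28 (edgeR adjusted p = 5.92e-05), both past it. Its night-day difference was smaller in SCGX than in Sham by 7.80 on the log2 scale in a test of the difference itself, with a coefficient of -7.80 (SE 0.93, edgeR adjusted p = 0.000137). It was the 1 member past the threshold in that test, where 4.58% of all genes were. In culture it rose from 1.26, 1.83 and 1.19 CPM to 10.3, 14.3 and 13.97 CPM with NE and to 13.5, 27.4 and 12.8 CPM with DBcAMP. The log2 fold changes were 3.27 (SE 0.20, edgeR adjusted p = 5.10e-09) and 3.80 (SE 0.33, edgeR adjusted p = 1.39e-06). In the 6 fits that left out a Sham library its log2 fold change ran from 6.36 to 7.21, and the call held in 1 of them, that without Sham night replicate 3 (edgeR adjusted p = 9.59e-05). In the fits that lost the call, 23 to 140 of all genes were called, against 365 with all libraries. DESeq2 on all Sham libraries gave an adjusted p of 3.21e-32.

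ENSRNOG00000015550 was the member of highest level in Sham night replicate 3. There it reached 2259.8 CPM, which is 595.1% of its mixed-tissue level of 379.7 CPM, where the others of the group stood at 31.1 and 128.8 CPM. Sham day stood at 53.0, 17.3 and 201.8 CPM, and DCN day at 87.0, 35.8 and 38.5 CPM. Over the 22 other in vivo libraries it ran from 5.79 to 201.8 CPM with a median of 36.6. Cultures stood at 8.32 to 36.1 CPM. The gene passed the threshold in none of the 10 comparisons. In Sham its log2 fold change at night was 3.19 (SE 1.59, edgeR adjusted p = 0.211), and 0.0069 without Sham night replicate 3.

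ENSRNOG00000032669, at 799.4 CPM in mixed tissue, was lower after both operations on the sympathetic supply. Control stood at 10.1, 16.9 and 19.8 CPM by day and at 5.56, 8.16 and 12.6 CPM at night. Sham stood at 21.8, 4.90 and 6.71 CPM by day and 10.9, 11.6 and 14.5 CPM at night. DCN stood at 0.818, 0.609 and 0.582 CPM by day and 1.12, 1.12 and 1.25 CPM at night, and SCGX at 1.78, 1.21 and 1.43 CPM by day and 0.770, 0.952 and 1.19 CPM at night. The 12 libraries of Control and Sham all lay above the 12 of DCN and SCGX.

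At night ENSRNOG00000032669 fell by 3.50 on the log2 scale in DCN against Sham (SE 0.20, edgeR adjusted p = 0.000237) and by 3.75 in SCGX against Sham (SE 0.23, edgeR adjusted p = 0.0002). By day the values were -4.09 (edgeR adjusted p = 0.0367) and -2.88 (edgeR adjusted p = 0.0194), short of the threshold. It was not raised in either library that stood apart, with 0.818 CPM in DCN day replicate 1 and 14.5 CPM in Sham night replicate 3. In culture it stood at 1.47, 0.812 and 1.30 CPM untreated and rose to 3.23, 5.07 and 2.64 CPM with NE, a log2 fold change of 1.69 (SE 0.30, edgeR adjusted p = 0.000499). With DBcAMP it stood at 1.59, 2.85 and 1.75 CPM (edgeR adjusted p = 0.0403). The DCN call held in 1 of 6 fits that left out a library, that without Sham night replicate 3. The SCGX call held in 2 of 6, and the NE call in 1 of 6. Log2 fold changes in those fits ran from -3.57 to -3.46 for DCN, from -3.92 to -3.62 for SCGX and from 1.43 to 1.89 for NE. In the DCN fits that lost the call, 0 to 66 of all genes were called, against 140 with all libraries. DESeq2 on all libraries gave adjusted p of 8.96e-29 for DCN, 3.74e-29 for SCGX and 2.48e-05 for NE. The NE call was also lost with scaling by library size alone (edgeR adjusted p = 0.00153).

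ENSRNOG00000011438, at 266.6 CPM in mixed tissue, was also lower in DCN and SCGX than in Control and Sham. Control stood at 5.24, 4.396 and 7.65 CPM by day and 0.687, 1.16 and 2.01 CPM at night, and Sham at 5.43, 3.38 and 3.94 CPM by day and 0.814, 1.13 and 1.63 CPM at night. Unlike for ENSRNOG00000032669, the night libraries all lay below the day libraries in both groups. The log2 fold changes were -1.98 in Control (edgeR adjusted p = 0.00353) and -1.77 in Sham (edgeR adjusted p = 0.0140), short of the threshold. DCN stood at 0.315, 0 and 0.0646 CPM by day and 0.0698, 0.0659 and 0.0657 CPM at night, and SCGX at 0.127, 0 and 0 CPM by day and 0, 0 and 0.149 CPM at night. All 12 Control and Sham libraries lay above all 12 of DCN and SCGX. By day it was lower in SCGX than in Sham (log2 fold change -6.28, SE 0.61, edgeR adjusted p = 0.000955), on 2 read-pairs against 195. The ratio of Sham to SCGX was 93.4 with an exact 95% counting interval of 25.5 to 777.1. That interval pools the libraries of each group and does not cover the spread between libraries.

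The call by day for ENSRNOG00000011438 was lost, with 0 of 6 held, in the fits that left out a library (edgeR adjusted p = 0.00132 to 0.00738). Its log2 fold change in those fits ran from -8.96 to -5.80. The same fits called 0.0381% to 0.826% of all genes, against 0.723% with all libraries. DESeq2 on all libraries gave an adjusted p of 1.35e-07. The other surgical comparisons of ENSRNOG00000011438 gave edgeR adjusted p of 0.0306 for DCN by day, 0.00332 for DCN at night and 0.0135 for SCGX at night, short of the threshold. In culture it stood at 3.15, 1.22 and 3.24 CPM untreated, 3.10, 4.37 and 3.85 CPM with NE and 3.66, 3.52 and 3.57 CPM with DBcAMP, and did not pass the threshold with either agent (edgeR adjusted p = 0.111 and 0.112).

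**Figure D5:**
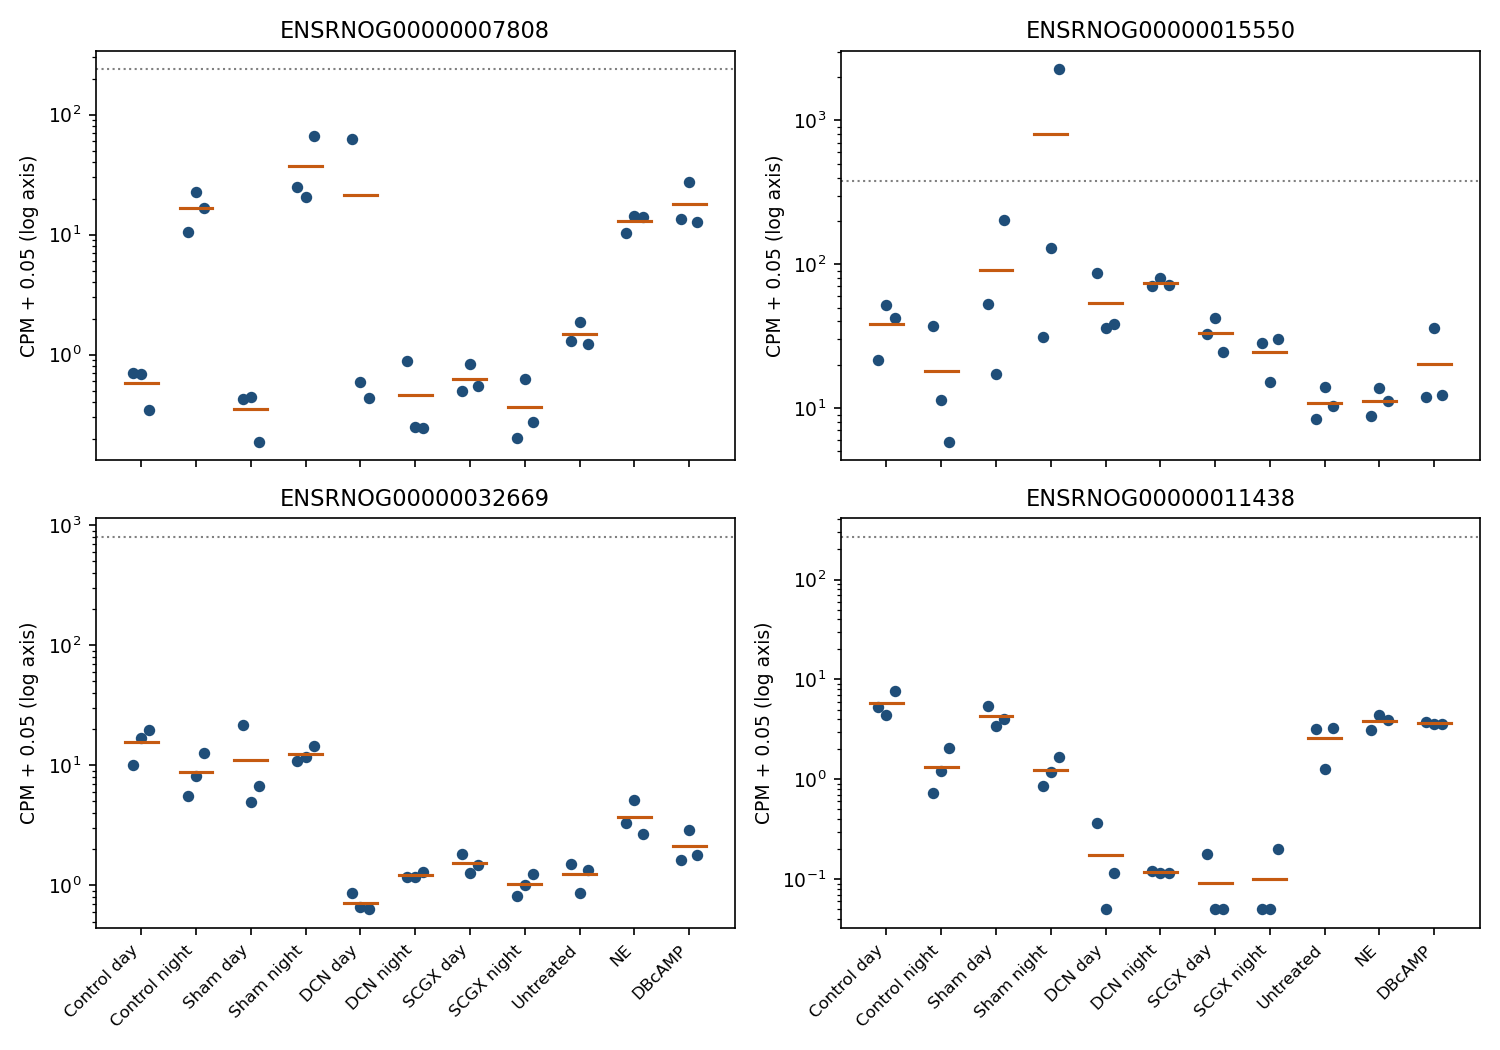
Levels of the 4 members printed by identifier in the 33 libraries, in CPM plus 0.05 on log axes, with 1 point per library, orange bars at group means (n = 3) and a dotted line at the mixed-tissue level. ENSRNOG00000007808 reaches 62.9 and 65.9 CPM in DCN day replicate 1 and Sham night replicate 3, ENSRNOG00000015550 passes its mixed-tissue level in Sham night replicate 3 only, and the other pair are lower in all 12 DCN and SCGX libraries than in all 12 Control and Sham libraries.

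The spread between replicates was largest for the members in the groups with the libraries that stood apart. Those libraries were singled out by their member sums, so neither this spread nor the withheld p-values below are separate support. The median SD of log2(CPM + 0.5) over members was 0.71 in Sham night and 0.47 in DCN day, and 0.18 to 0.24 in the other 6 in vivo groups. For genes with a mean count of at least 5 over the 33 libraries it was 0.19, 0.15 and 0.12 to 0.16. DESeq2 withholds a p-value where a single library departs far from the fit. It did so for 44 of 205 members in Sham night against day, or 21.5%, and for 0.841% of all genes tested. In DCN night against day it did so for 43 of 205 members, or 21.0%, and for 0.640% of all genes. The 3 other comparisons with those libraries gave 20.7%, 21.9% and 22.7% of members. In Control, SCGX, NE and DBcAMP it withheld no member's p-value, and in SCGX against Sham by day it withheld 1.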

How the data were processed

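The authors processed the sequencer output with CASAVA 1.8.2, aligned read-pairs to rn4 with STAR 2.3.1y and counted them per Ensembl release 69 gene with QoRTs under the union mode of HTSeq. Per the file headers the deposited values are read-pair counts per gene, as whole numbers with no normalization. The deposited RPKM values were used only to recover gene lengths (genes with at least 20 counts). The in vivo, culture and marker libraries were sequenced apart.

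Here CPM is the count divided by the library total. The members, the gene lists and the tests were chosen with earlier results of these data known. Groups came from the sample labels. Night-day, surgical and treatment comparisons used only the groups compared, with edgeR 4.0.16 (R 4.3.3), TMM, a filter on a mean normalized count of 5, the quasi-likelihood test and Benjamini-Hochberg adjustment over all genes tested, at 0.001. DESeq2 1.42.0 was an alternative. The code was tested on simulated data. Genes were to be named by effect size, but no table paired identifiers with symbols, so at most 2 that were higher and 2 that were lower are printed. Marker lists by symbol were not used here. Replicates are pools of glands, collected 3 to a tube. All replicate pairs differed by more than sampling noise (chi-square per degree of freedom 6.17 to 44.4). Other settings were tried as described at the end.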

Additional observations from a re-analysis of the deposited data

Results flagged for a closer look

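ENSRNOG00000007808 differed between surgical groups in its night-day difference. The test of that difference, SCGX against Sham, gave a log2 coefficient of -7.80 (SE 0.93, edgeR adjusted p = 0.000137). Its levels were higher in 3 of 3 Sham night libraries than in every Sham day library, and at 0.154 to 0.785 CPM in all 6 SCGX libraries. Without Sham night replicate 3, a choice made after seeing the data, the coefficient was -7.18 (edgeR adjusted p = 1.31e-05). For DCN against Sham the coefficient was -12.61 (edgeR adjusted p = 0.00725), and -6.51 (edgeR adjusted p = 0.00118) without DCN day replicate 1 and Sham night replicate 3, short of the threshold both times. No group here has 4 or more libraries, so single libraries were not tested as outliers.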

How the results depend on the processing

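At an adjusted p under 0.05 the members called were 43 in Control night against day, 11 in Sham, 5 in SCGX, 8, 12, 23 and 11 in DCN against Sham by day and at night and SCGX against Sham by day and at night, 32 with NE and 66 with DBcAMP, and 0 in DCN night against day. Over all genes the same threshold called 35.3% in Control, 20.6% in Sham, 1.85% in SCGX, 2.53%, 17.1%, 11.4% and 20.8% in the 4 surgical comparisons, 30.2% with NE and 42.0% with DBcAMP. DESeq2 gave 17 in Control, 7 in Sham, 5 in SCGX, 8, 9, 12 and 6 in the 4 surgical comparisons, and counts within 1.5 times of edgeR in the other 3. Over all genes DESeq2 called 17.6% in Control, 11.4% in Sham, 1.12% in SCGX, and 2.53%, 9.30%, 5.52% and 10.8% in the 4 surgical comparisons. Without the filter on low counts there was 1 in SCGX, 2 in DCN and 2 in SCGX against Sham at night, 17 with NE and 36 with DBcAMP, where 0.272%, 1.19%, 1.92%, 12.5% and 18.1% of all genes were called. Median-of-ratios size factors gave 2 in SCGX against Sham at night. Scaling by library size alone left every count of members within 1.5 times, but ENSRNOG00000032669 lost its call with NE (log2 fold change 1.59, edgeR adjusted p = 0.00153).

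Leaving out 1 library gave 5 to 10 members in Control (5 without Control day replicate 2 and 5 without Control night replicate 2, against 9), 0 to 2 in Sham, 0 to 2 in DCN against Sham at night, 0 to 2 in SCGX against Sham by day, 0 to 3 in SCGX against Sham at night, 4 to 7 with NE and 13 to 20 with DBcAMP. Over all genes the same fits called 5.16% to 9.53% in Control and 0.143% to 2.62% in Sham. In DCN against Sham at night the shares were 0% to 1.38%. For SCGX against Sham they were 0.0381% to 0.826% by day and 0.0627% to 3.39% at night. They were 7.93% to 9.16% with NE and 10.3% to 14.5% with DBcAMP. With NE the count of members was 5 without Untreated replicate 2 and 4 without Untreated replicate 3, and with DBcAMP it was 13 without Untreated replicate 3. The highest values in the Sham night comparisons, 2, 2 and 3, came without Sham night replicate 3. In DCN night against day, SCGX night against day and DCN against Sham by day no left-out library gave a member. At most 0%, 0.0321% and 0.00631% of all genes were called in those fits.

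Same-numbered libraries deviated from their group means with correlations from -0.24 to 0.15, and in 0 of the 10 comparisons were all 3 above 0.1, so the numbers were taken as names only. With the replicate number as a block, members called went to 0 in Sham night against day, in DCN against Sham at night and in SCGX against Sham by day and at night, and stayed within 1.5 times elsewhere. In the comparisons that went to 0, the block left 0.243%, 0.0502%, 0.0825% and 0.151% of all genes called, in the same order. Without it the shares of all genes were 2.27%, 0.878%, 0.723% and 1.72%. Calls thus fell for all genes as well.

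A mixed-tissue limit of 50 CPM gave 489 members and one of 200 CPM gave 137. The ratio of DCN day replicate 1 to the highest of the 22 other libraries was 4.59 with a fold limit of 16 and 2.58 without the most abundant member of each library. That of Sham night replicate 3 was 4.80 and 2.93 under the same settings and 3.52 with the limit of 200 CPM. The other planned settings of these values moved them by less than the spread of the 22 libraries or, for the number of members, by less than 1.5 times. The 3 marker libraries have no replicates, so the error of membership is unknown.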
